A study of Mus musculus with 2 samples.

Results

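Bone morphogenetic protein (BMP) ligands and the secreted proteins that bind them were examined as a set of 8 genes in sorted heart cells of mouse embryos. The array names 18193 genes singly. The set was defined by gene symbol, with earlier results of these data known. It held 6 ligands, Bmp2, Bmp4, Bmp5, Bmp6, Bmp7 and Bmp10, and 2 extracellular modulators, Bmper and Twsg1. They were read by 15 probe sets, 10 for ligands and 5 for modulators, each annotated to exactly 1 gene, and all 15 gene identifiers matched the RefSeq gene table.

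Cells of the Tie2Cre lineage were sorted from hearts at embryonic day 12.5, and 1 Affymetrix array was run for each of 2 genotypes. The mutant was Tie2Cre;Tbx20 loxP/-, with a floxed and a null allele of Tbx20, a T-box gene needed for heart development. The control was Tie2Cre;Tbx20 +/loxP, with a wild-type and a floxed allele. Both genotypes carried Tie2Cre, a transgene that recombines floxed DNA in endothelium and endocardium and so marks their descendants, including much of the cushion mesenchyme. Control cells therefore also lose a copy of Tbx20 where Cre acts, and the null allele of the mutant is present in all cells of the embryo. Dead cells and cells with the blood markers CD41, CD45 or Ter119 were gated out. Whether embryos were pooled is not given in the sources used here.

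BMPs are secreted dimers of the transforming growth factor beta family that bind type I and type II receptor kinases and act through SMAD proteins. In the embryonic heart they are known for inducing endocardial cells of the atrioventricular canal and outflow tract to become cushion mesenchyme, the forerunner of valves and septa. Modulators such as Bmper and Twsg1 bind BMPs outside the cell and can limit or enhance their access to receptors.

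With 1 array per genotype there was no replicate check, so every difference is between these 2 arrays, no test was possible, and genotype and preparation cannot be told apart. Signals are MAS5 intensities, a linear brightness per probe set. A probe set counted as measured where it lay above the floor, the array's median signal, which was 82.4 in the mutant and 91.3 in the control. Tbx20 gave 6416, 5262 and 4245 in the mutant and 7638, 6128 and 7050 in the control over its 3 probe sets. The mutant signals were 84.0%, 85.9% and 60.2% of control. Whether they read the part of the gene that Cre removes is not known, so these signals do not check the deletion. All 8 endothelial markers and all 6 endocardial markers of the sorted lineage were measured on both arrays. Their median log2 ratios of mutant over control were 0.08 and 0.12, and the endocardial markers spread from -0.85 for Cytl1 to 1.16 for Irx3. The 3' over 5' signal ratio, a sign of RNA quality, was 1.64 in the mutant and 2.27 in the control for Gapdh, but 0.998 in the mutant and 0.989 in the control for Actb. The arrays also differed in the 18 spike probe sets, which all read lower in the mutant (mean log2 ratio -0.45). The part of these in the results below was not tested.

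Of the 8 genes, 6 were measured on both arrays, and 3 of these were at least 2-fold lower in the mutant: the ligands Bmp6 and Bmp2 and the modulator Bmper. Over all 10665 measured genes, 1.46% were at least 2-fold lower. The members were chosen with earlier results of these data known, so setting them beside this share is no test. The other 3 measured genes, the ligands Bmp4 and Bmp5 and the modulator Twsg1, differed by at most 1.08-fold in the probe set that represents each gene. None of the 6 was at least 2-fold higher, against 0.647% of all measured genes. Bmp7 and Bmp10 were not above the floor on either array.

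**Figure D1:**
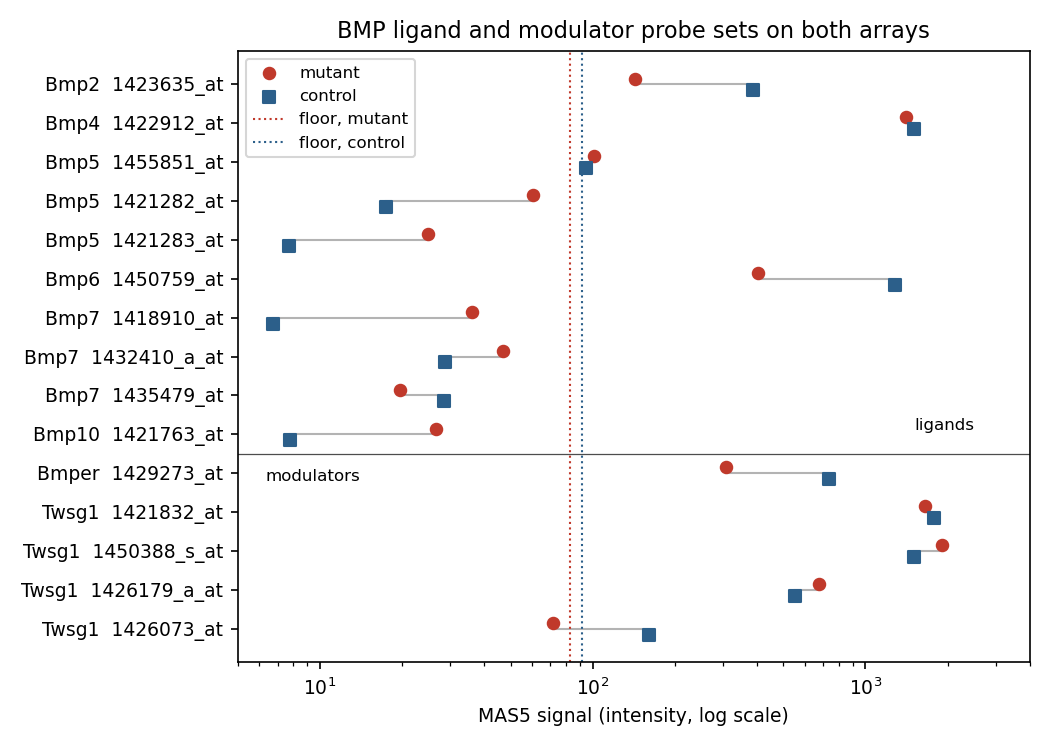
MAS5 signal (log axis) of each of the 15 probe sets in the mutant (red circle) and the control (blue square), with ligands above the horizontal line, modulators under it, and dotted lines at each array's floor. Bmp2, Bmp6 and Bmper stand well to the left in the mutant with both signals above the floor, while 6 ligand probe sets lie under the floor on both arrays; signals of different probe sets cannot be compared with each other.

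The promoters of 4 of these genes are shown to set members that were 2-fold lower (Bmp6, Bmper) beside members whose brightest probe set was close to equal (Bmp4, Twsg1), with sequences from RefSeq. Each runs 5' to 3' on the strand of its gene, from 250 bases before the start site to 50 after it, on build GRCm38.p6. Capitals mark AGGTGTG, part of the half-site that T-box factors are known to bind, or its reverse complement CACACCT. The Bmp6 window is chr13:38345466-38345765 on the + strand, the Bmper window chr9:23222826-23223125 on the + strand, the Bmp4 window chr14:46390620-46390919 on the - strand and the Twsg1 window chr17:65951138-65951437 on the - strand.
Bmp6: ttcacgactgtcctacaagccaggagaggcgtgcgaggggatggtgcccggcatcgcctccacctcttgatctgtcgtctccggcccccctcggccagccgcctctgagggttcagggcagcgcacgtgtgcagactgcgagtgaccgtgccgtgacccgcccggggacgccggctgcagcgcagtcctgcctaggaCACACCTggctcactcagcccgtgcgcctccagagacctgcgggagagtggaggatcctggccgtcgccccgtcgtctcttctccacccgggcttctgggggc
Bmper: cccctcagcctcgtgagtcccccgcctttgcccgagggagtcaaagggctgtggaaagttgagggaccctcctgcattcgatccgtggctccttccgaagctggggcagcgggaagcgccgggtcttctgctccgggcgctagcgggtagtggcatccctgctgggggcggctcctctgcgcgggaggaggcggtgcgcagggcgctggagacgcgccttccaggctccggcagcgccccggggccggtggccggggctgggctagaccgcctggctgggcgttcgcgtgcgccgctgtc
Bmp4: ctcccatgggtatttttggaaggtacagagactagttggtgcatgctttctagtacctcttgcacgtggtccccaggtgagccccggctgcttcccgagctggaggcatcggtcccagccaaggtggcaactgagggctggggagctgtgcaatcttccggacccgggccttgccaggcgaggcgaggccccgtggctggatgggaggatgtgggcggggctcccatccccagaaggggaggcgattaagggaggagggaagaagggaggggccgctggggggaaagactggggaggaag
Twsg1: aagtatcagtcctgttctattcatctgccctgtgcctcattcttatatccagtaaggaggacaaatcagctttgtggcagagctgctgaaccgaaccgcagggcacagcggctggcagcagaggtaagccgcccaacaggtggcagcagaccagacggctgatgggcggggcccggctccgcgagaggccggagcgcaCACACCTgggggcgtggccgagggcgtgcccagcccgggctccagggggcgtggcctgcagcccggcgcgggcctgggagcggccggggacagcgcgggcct

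The T-box letters were found once in the Bmp6 window, starting 53 bases before the start site, and once in the Twsg1 window, starting 52 bases before it. They were not in the windows of Bmper, Bmp4, Bmp5 or Bmp10. Of 32851 promoter windows of the same length, 5.84% hold these letters on either strand. In both Bmp6 and Twsg1 the match overlaps CAGGTG, read as CACCTG, an E-box of the kind that Snail and Twist factors bind. CAGGTG is in 20.2% of all windows, and was found in Bmp4 once and in Twsg1 once more. GGCGCC, a GC-rich element bound by BMP SMADs, is in 11.9% of all windows and in none of the 6 member windows searched. The motifs were chosen with the sequences at hand. The windows of Bmp2 and Bmp7 were not searched. A match in letters does not show binding.

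Bmp6, a ligand of endothelial cells and of the endocardial cushions, had the lowest ratio of the set. Its single probe set read 403 in the mutant and 1285 in the control, 3.19-fold lower and a log2 ratio of -1.67. It ranked at place 16 from the lowest of the 10665 measured genes. Bmp2, the ligand best known for starting cushion formation in the atrioventricular canal, read 142 in the mutant and 386 in the control. This was 2.71-fold lower, a log2 ratio of -1.44 and place 30 from the lowest. Both ligands were thus among the lowest ratios of the genes measured on both arrays. Each rests on 1 probe set, so no second probe set bears on either value.

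Bmp4, a ligand known from the outflow tract and its surrounding mesoderm, read 1409 in the mutant and 1508 in the control. Its log2 ratio of -0.10 was smaller than the SD of 0.31 between probe sets of 1 gene at mean signals of 1000 and over. Bmp4 and Bmp2 are close relatives in sequence, yet their probe sets gave different ratios on the same arrays. Bmp5, which belongs with Bmp6 and Bmp7 to another branch of the family, was read by 3 probe sets. Only the brightest was above the floor, at 101 in the mutant and 94.4 in the control, a log2 ratio of 0.10 from signals close to the floor. The other Bmp5 probe sets read 60.6 and 24.9 in the mutant and 17.5 and 7.70 in the control, all under the floor.

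Bmp7 had 3 probe sets and none above the floor on either array. They read 36.2, 46.8 and 19.7 in the mutant and 6.72, 28.8 and 28.6 in the control. Bmp10, a ligand that trabecular heart muscle is known to secrete, read 26.6 in the mutant and 7.81 in the control, also under both floors. Signals under the floor have no usable order, so no ratio is given for either gene. Over the 4 measured ligands, 3 were lower and 1 was higher. The ligand median was -0.77 on the log2 scale, while all measured genes had a median of -0.01 with 51.0% of them lower. This ligand median falls in the gap between Bmp2 and Bmp6 on one side and Bmp4 and Bmp5 on the other, and it was -0.10 with the floor at the 25th percentile (5 ligands measured) and with the floor at the 75th (1 ligand measured).

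Bmper, a secreted BMP-binding protein first found in endothelial precursors, was the lower of the modulators. Its single probe set read 308 in the mutant and 737 in the control, 2.39-fold lower, a log2 ratio of -1.26 and place 62 from the lowest. Twsg1, which encodes twisted gastrulation, a protein that binds BMPs together with chordin, had 4 probe sets that did not move one way. The brightest read 1654 in the mutant and 1779 in the control, a log2 ratio of -0.11. The next read 1910 in the mutant and 1500 in the control (0.35), and the third 674 in the mutant and 551 in the control (0.29). The fourth read 71.4 in the mutant, under the floor, and 161 in the control, at least 1.95-fold lower. Over the 3 measured Twsg1 probe sets the mean log2 ratio was 0.18 (SD 0.25 over 3 probe sets), so no direction can be given for Twsg1. The median over the 2 modulators was -0.68, midway between genes that differ.

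**Figure D2:**
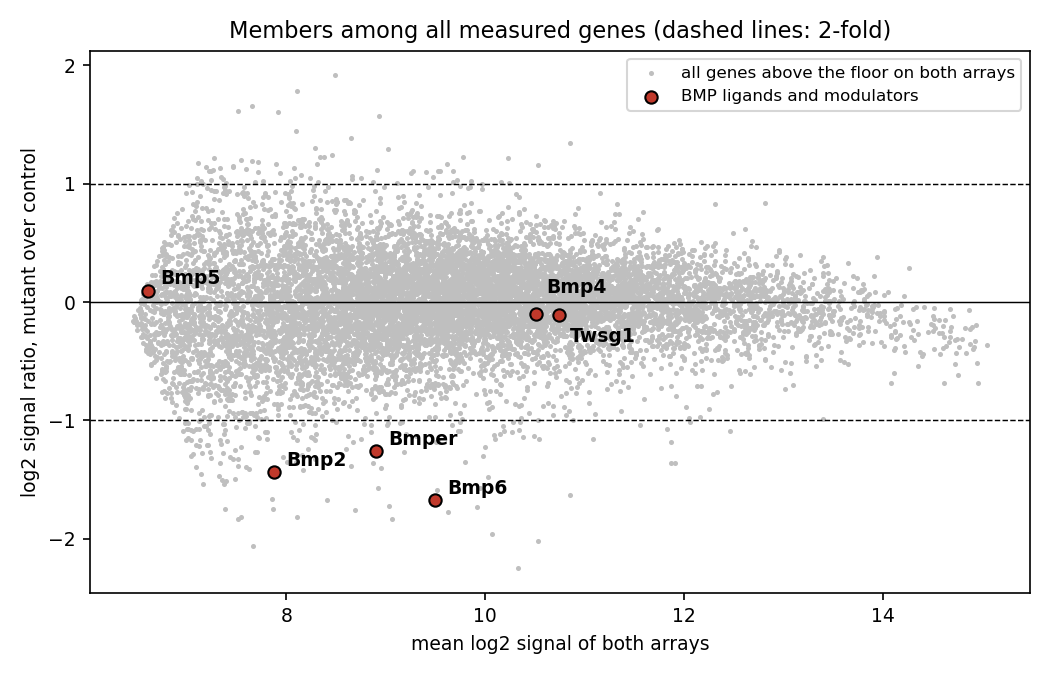
Log2 signal ratio of mutant over control (vertical) against the mean log2 signal of both arrays (horizontal) for all 10665 measured genes (grey) and the 6 measured members (red); dashed lines mark 2-fold. Bmper and Bmp6 lie under the lower dashed line at middle brightness, and Bmp2 lies under it at a dimmer mean log2 signal of 7.87. Bmp4 and Twsg1 lie near 0, and Bmp5 lies at the dim edge.

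How far a ratio strays between arrays depends on brightness. Bmp2, Bmp6 and Bmper all had mean signals from 200 to 1000, a class in which 1.37% of 4969 genes were at least 2-fold lower. The class under 200 had 4.52% and the class of 1000 and over had 0.621%. Bmp2 was the dimmest of the 3, and its mutant signal of 142 was itself under 200. Probe sets of 1 gene differed by an SD of 0.39 in the class from 200 to 1000, over 2264 genes with several. The 3 genes were picked as at least 2-fold lower, so their log2 differences had to exceed this SD, which is no support for them. This SD covers probe error only, since probe sets share the RNA, and says nothing of the spread between embryos. Each of the 3 genes has 1 probe set, so its own probe error was not measured.

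The other genes of the pathway were read from lists of ligands, modulators, receptors, and effectors with targets. Among 17 other ligand genes of the wider family, 12 were on the array and 1 was measured on both arrays: Inhba, an activin subunit, at 1331 in the mutant and 1328 in the control (log2 ratio 0.00). Inhbb was above the floor in the mutant only, at 121 in the mutant and 69.9 in the control. The remaining 10, Gdf2 (BMP9) among them, were under the floor on both arrays. Bmp2, Bmp4, Bmp5, Bmp6 and Inhba were thus the ligand genes of these lists with a signal on both arrays.

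Of 28 other modulators, 15 were measured, 9 of them lower and 6 higher, and their median log2 ratio was -0.21. The only one at least 2-fold lower was Htra1, a secreted protease, at 2490 in the mutant and 5642 in the control (-1.18), with its second probe set at -0.96. The only one at least 2-fold higher was Sost, which encodes the secreted antagonist sclerostin, at 1173 in the mutant and 523 in the control (1.16). Kcp, a chordin-like protein, stood at -0.66. Fst, the activin antagonist follistatin, stood at 0.55 with its second probe set at -0.48. Rgmb, counted as lower at -0.27, had 4 measured probe sets that ran from -0.27 to 1.21. The antagonists Nog, Chrd and Grem1 were not above the floor on either array. The modulators therefore held members on both sides of equal signal.

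Of 7 receptors, 6 were measured and none was 2-fold apart, with 5 lower, 1 higher and a median of -0.08. The type II receptor Bmpr2 read 1840 in the mutant and 2419 in the control (-0.39), with its second probe set at -0.10. Acvrl1, the endothelial type I receptor ALK1, read 171 in the mutant and 210 in the control (-0.30), with its second at -0.39. Bmpr1a, the main type I receptor of cushion formation, stood at 0.18, with its 5 measured probe sets between -0.49 and 0.46. Acvr2b stood at -0.11, with a highest probe set at 1.00. All 6 receptor ratios lay between the 5th and 95th percentiles of all measured genes, -0.67 and 0.56.

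Of 20 effectors and targets, 19 were measured, with 12 lower, 7 higher and a median of -0.10. Msx1, a homeobox gene induced by BMPs, was the only one at least 2-fold lower, at 890 in the mutant and 1885 in the control (-1.08), with its second probe set at -0.85. The inhibitory SMAD gene Smad7 stood at -0.95 with its second probe set at -0.31, and Snai2, a repressor of cadherins in cushion formation, at -0.89 and -0.83. Smad9, a receptor-activated SMAD gene, was the highest at 0.78 from signals of 199 in the mutant and 116 in the control. The direct BMP targets Id1 and Id3 read 2900 and 8526 in the mutant and 3650 and 10049 in the control, log2 ratios of -0.33 and -0.24. The related Id2 stood at 0.12 with its second probe set at -0.22. Id4 stood at -0.01, the highest of its 3 measured probe sets, with the lowest at -0.33. The Id genes lie outside the naming rule and were picked after their values were seen.

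**Figure D3:**
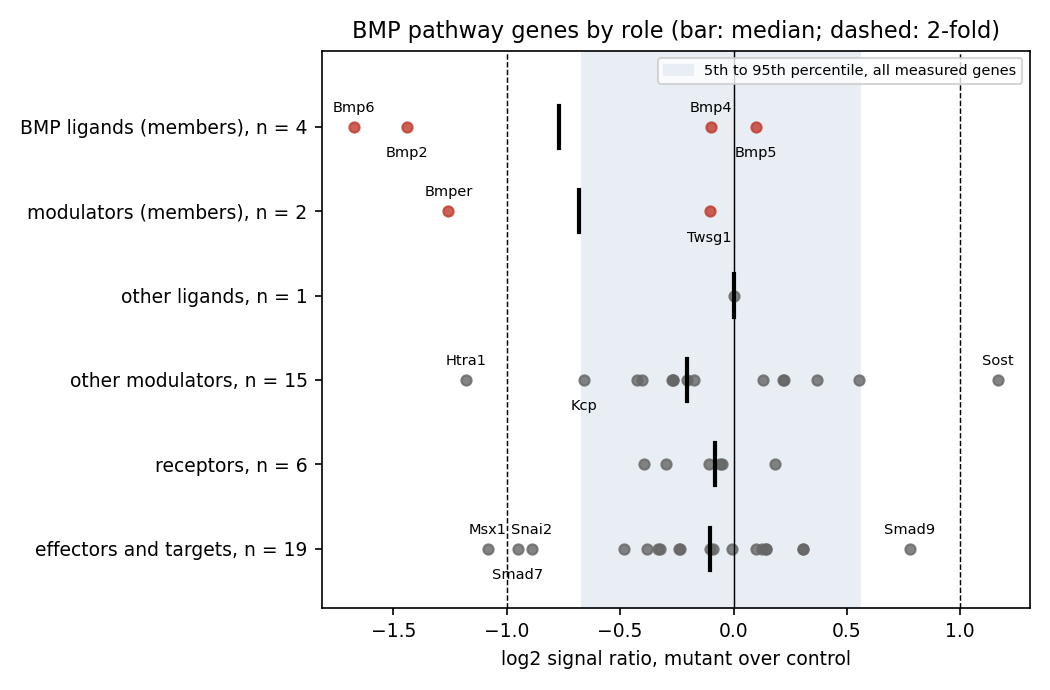
Log2 signal ratio of mutant over control for each measured gene of the BMP pathway by role, with the 6 measured members in red, other listed genes in grey, a black bar at each median and the shaded band spanning the 5th to 95th percentile of all measured genes (-0.67 to 0.56). Bmp6, Bmp2, Bmper, Htra1 and Msx1 lie under the lower 2-fold line, Sost lies above the upper one, and all 6 receptors lie inside the band.

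Among the marker lists read on the same arrays, those of cushion mesenchyme, epicardium and immediate early genes each lay on one side. All 9 cushion mesenchyme markers, Tbx20 and Msx1 among them, were lower in the mutant, with a median log2 ratio of -0.50. Their summed signal was 49727 in the mutant and 62768 in the control. They ran from -1.08 for Msx1 to values close to equal, such as -0.11 for Col1a1 and -0.07 for Col3a1. Tbx20 is itself the deleted gene. Fewer cells of a type and less RNA per cell cannot be told apart in such bulk samples. Myocardium, a known source of several BMP ligands, had 10 of 12 markers measured, 5 lower and 5 higher, with a median of -0.07 and a summed signal of 24170 in the mutant and 22440 in the control. The measured myocardial markers ran from -0.48 for Nppa to 0.83 for Myl7, while Nkx2-5 and Ryr2 were under the floor on both arrays. All 7 measured epicardial markers of 9 were higher, with a median of 0.62 and a summed signal of 8608 in the mutant and 4930 in the control. Msln was under both floors.

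Smooth muscle and pericyte markers had a median of -0.10 over 6 of 7 measured, with 4 lower and 2 higher, and summed to 9894 in the mutant and 11252 in the control. Of 8 erythroid and megakaryocyte markers, 5 were measured, 4 of these lower and 1 higher. Their median log2 ratio was -0.97, the largest in size of the marker lists, with a summed signal of 7766 in the mutant and 11765 in the control. Of 6 leukocyte markers, 1 was measured, Cd68 at 0.79. Cx3cr1 and Csf1r read 47.8 and 80.6 in the mutant, under the floor, and 226 and 144 in the control. They were thus at least 2.74-fold and 1.74-fold lower. Ptprc, the gene of the gated CD45, was under both floors, as was Itga2b, the gene of CD41. Of 4 neural crest markers, 2 were on the array and 1 was measured, Ednrb at 0.84. The other, Sox10, read 64.3 in the mutant, under the floor, and 137 in the control, at least 1.66-fold lower. All 10 immediate early genes, which respond to cell handling, were lower in the mutant, with a median of -0.47. Their log2 ratios ran from -1.38 to -0.02, the last close to equal. The part of any of these lists in the lower Bmp2, Bmp6 and Bmper signals was not tested.

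**Figure D4:**
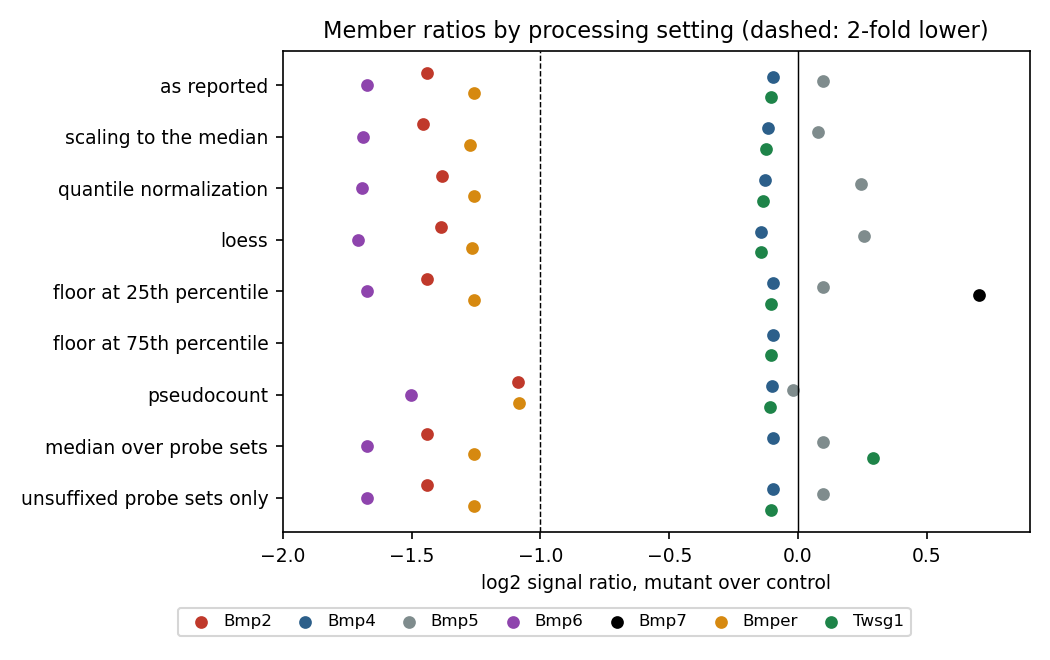
Log2 signal ratio of mutant over control for each member (coloured points) under the reported processing and 8 alternatives, with a dashed line at 2-fold lower. Bmp6, Bmp2 and Bmper lie left of the dashed line in all settings that measured them on both arrays, and with the floor at the 75th percentile only Bmp4 and Twsg1 were so measured.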

How the data were processed

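Total RNA of the sorted cells was labelled with biotin and hybridised to 1-colour Affymetrix arrays, per the labels' protocols. The deposited values are MAS5 signal intensities, 1 per probe set, per the submitters' processing notes. MAS5 combines perfect-match and mismatch probes and scales each array by 1 factor. The deposited intensity columns bear this out, with a mean of 500 on each array once the lowest and highest 2% were left out. Ratios of dim probe sets are noisy under this method. Neither software version nor genome build is given in the sources used here, and the number of arrays limits the precision.

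Of 45101 probe sets, 64 were controls, 34945 named 1 gene, 932 several and 9160 were not listed in the platform annotation. Signals were set to a floor at each array's median over non-control probe sets and put on the log2 scale. Among its single-gene probe sets a gene took the brightest by mean log2 signal before the floor, and was measured where that one lay above both floors. Where only 1 array was above, a bound against the other floor was taken. No test, SE or p-value was computed.

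The members and lists were chosen with earlier results of these data known. Named genes were all 8 members, Tbx20, and pathway genes at 2-fold or among the 4 largest absolute ratios of their list. Up to 3 of the brightest markers per list also fell under the rule, of which only some are named. The rule also took the 3 nearest genes by signal on both arrays, which are left out because signals of different probe sets cannot be compared. Genes named as under a floor, Cytl1, Irx3, Nppa, Rgmb and the Id genes lie outside this rule. Alternatives were scaling to the median, quantile normalization, loess with a span of 0.3, a pseudocount of each array's median, floors at the 25th or 75th percentile, the median over probe sets or unsuffixed ones alone, and folds of 1.5 and 3. Python 3.11.15 with pandas 2.3.3 and statsmodels 0.14.6 was used. The steps were run on simulated data with planted differences larger than those of Bmp2 and Bmper. Noise was drawn from the spread between probe sets, so the run is no check on ratios between arrays.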

Additional observations from a re-analysis of the deposited data

How the results depend on the processing

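Of 132 values recomputed under the alternatives, 113 stayed within the spread between probe sets (or, for counts, within 1.5 times). Some of the 113 could not change, since a floor leaves the ratio of a gene above it as it was. A gene with 1 unsuffixed probe set likewise keeps its ratio when probe sets are combined or filtered. The count of 113 is therefore no measure of how firm the results are. Bmp6 ranged from -1.71 to -1.5, Bmp2 from -1.46 to -1.09 and Bmper from -1.28 to -1.08, in each case over 7 alternatives that measured them. Each of these genes has 1 probe set, which is unsuffixed and above the floor. The lower floor, the median over probe sets and unsuffixed probe sets alone could therefore not change their values. The lowest size for Bmp2, -1.09, came with a pseudocount, which shrinks dim ratios and also took the ligand median to -0.59. The floor at the 75th percentile left Bmp4 and Twsg1 as the measured members. The count of members at least 2-fold lower was then 0 of these 2, against 34 of 6247 measured genes. The ligand median was -0.10 and the modulator median -0.11. Bmp6 was there above the floor in the control only, at least 2.46-fold lower in the mutant, and Bmper likewise at least 1.41-fold. The floor at the 25th percentile added Bmp7 at 0.70 and took the ligand median to -0.10. The median over probe sets turned Twsg1 to 0.29 and moved the list of other modulators to -0.12. Bmp5 was -0.02 with a pseudocount. At 3-fold, 1 of the 6 measured members (Bmp6) remained lower, against 19 of all 10665 measured genes.

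Over all 10665 measured genes, the counts lower and higher were 156 and 69 as reported. They were 537 and 233 of 13588 measured genes with the lower floor, and 34 and 12 of 6247 with the higher floor. With 10665 measured genes they were 68 and 14 with a pseudocount, 705 and 466 at 1.5-fold, and 19 and 5 at 3-fold. No paired analysis was possible because there was 1 array per genotype. Each 2-fold member rests on 1 probe set of 1 array per genotype.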
